A study of Mus musculus with 10 samples.

Results

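The 8 genes described here encode dual-specificity phosphatases: Dupd1, Dusp1, Dusp2, Dusp3, Dusp4, Dusp6, Dusp13 and Dusp26. They are 8 of 19057 gene symbols on an Illumina mouse bead array and were found by symbol in the platform annotation, on 22 of its 45281 probes. The set was selected on the measured levels of D7E against WTA arrays, where Dupd1 fell to background and Dusp2 rose, so the values of that contrast are given below as a description without a test. RNA came from cultures of IM2, a mouse muscle cell line, taken after confluent myoblasts had been kept under fusion conditions for 4 days without other treatment. All cultures expressed PABPN1 with a FLAG tag, which binds poly(A) tails in the nucleus and in which extra alanines cause oculopharyngeal muscular dystrophy. The WTA group (2 arrays) carried the wild type protein. The WTD group (3 arrays) also carried the wild type protein, which the labels describe as low in level. The D7E group (3 arrays) carried a mutant protein, at a level given as close to that of WTA. Neither the promoter of the transgene nor the number of clones behind a group is stated in the labels. They also leave out whether replicates came from separate cultures, so the p-values below cover the spread between arrays alone, and that spread may be technical.

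Dual-specificity phosphatases remove phosphate from tyrosine as well as from threonine or serine. One branch, the MAP kinase phosphatases, which includes Dusp1, Dusp2, Dusp4 and Dusp6, switches off ERK, JNK and p38 kinases by removing both phosphates of their activation loop, and its genes are often induced by the kinases they inactivate. The other branch holds small atypical enzymes with little more than the catalytic domain, among them Dusp3, Dusp13, Dusp26 and Dupd1; in muscle, ERK and p38 signalling help to time the passage from dividing myoblast to fused myotube.

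The stretch before the annotated start is shown for the genes whose levels chose the set, Dupd1 on chromosome 14 and Dusp2 on chromosome 2. RefSeq windows of build GRCm38.p6 were at hand for 6 of the 8 genes, and the bead array files themselves name no build. The Dupd1 window lies on the minus strand at chr14:21714577-21714826 and the Dusp2 window on the plus strand at chr2:127335909-127336158, each 250 bases long. Capitals mark E-boxes (CANNTG, the letters read by myogenic bHLH factors such as MyoD and myogenin, and by other bHLH factors) and, in Dupd1, a match to the MEF2 motif (here CTAAAAATAG).
Dupd1: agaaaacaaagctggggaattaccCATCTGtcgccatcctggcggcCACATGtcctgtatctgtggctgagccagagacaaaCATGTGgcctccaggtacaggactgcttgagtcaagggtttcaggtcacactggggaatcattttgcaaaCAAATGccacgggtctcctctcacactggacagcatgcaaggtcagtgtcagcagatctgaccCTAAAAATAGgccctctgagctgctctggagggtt
Dusp2: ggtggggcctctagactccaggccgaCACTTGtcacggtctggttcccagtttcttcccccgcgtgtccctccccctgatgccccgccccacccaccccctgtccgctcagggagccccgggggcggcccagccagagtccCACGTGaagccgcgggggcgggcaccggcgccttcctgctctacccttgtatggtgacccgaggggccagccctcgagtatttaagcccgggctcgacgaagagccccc
The Dupd1 window held 4 E-boxes, 226, 204, 168 and 98 bases before the start, the MEF2 match 35 bases before it, and 1 match, in lower case, to the AP-1 motif TGANTCA 141 bases before it. The Dusp2 window held 2 E-boxes, 224 and 109 bases before the start, and neither a MEF2 nor an AP-1 match. Both strands were searched over the same 250 bases of 32851 windows, of which 66.2% held an E-box, 6.75% an AP-1 match and 2.92% (959 windows) a MEF2 match. E-boxes were thus common in such windows and MEF2 matches rarer, and of the 9 windows of these genes that of Dupd1 was the one with a MEF2 match. The motifs were chosen with the windows in view, and a match is a description of letters. The CRE core TGACG, found in 17.8% of windows, had 3 matches before Dusp1 and none before Dupd1 or Dusp2.

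Of all probes on an array 13653 to 17565 were detected, that is, had a detection p under 0.05, and the ratio of the 95th percentile to the median of the signal ran from 3.20 in WTD replicate 2 to 8.37 in WTD replicate 3. The WTD columns stood in another probe order than their labels, and every WTD value rests on an order restored by matching the WTA ranks. Detection p-values of WTD replicates 1 and 3 were estimated from the signals. The 10 myotube markers found on the array, among them Acta1, Mylpf and Myog, were detected on all 8 arrays and none passed the test in any comparison. Among markers of other cells, Tagln rose from a mean log2 intensity of 5.18 in WTA to 6.69 in WTD (adjusted p = 0.0059) and 6.53 in D7E (adjusted p = 0.0188), while the other detected smooth muscle marker, Acta2, did not pass the test (14.58, 14.73 and 14.59), and Myh11 and Cnn1 were detected on no array. The summed level of the 4 smooth muscle markers was 22833 to 26401.7 in WTA, 25824.7 to 28657.1 in WTD and 23919.6 to 25856.1 in D7E. That of the 7 fibroblast markers, of which Dcn was detected on 2 arrays and Lum and Thy1 on 1 each, was 2671.44 to 3185.1 in WTA, 1784.79 to 2100.79 in WTD and 1996.23 to 2806.24 in D7E. Unlogged levels were summed, so Acta2 and Col1a1 set most of these sums. Mean log2 intensities in WTA, WTD and D7E were 11.20, 10.45 and 10.85 for Col1a1 and 8.11, 7.29 and 7.98 for Col3a1. Col1a2 went the other way in WTD (7.65, 7.97 and 7.90). None of these collagen genes passed the test in any comparison. The markers of adipocytes, endothelial cells, macrophages and Schwann cells had no member detected on all arrays. Pabpn1 read 9.24 and 9.18 (log2 intensity) in WTA, 10.24, 10.26 and 9.87 in WTD and 9.16, 9.58 and 10.58 in D7E, so the group labelled low had the higher signal. It is not known here whether its probe reads the transgene, and the groups are used below as labelled.

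Dupd1, an atypical phosphatase gene known from skeletal muscle, was read above background in WTA myotubes and in no other culture. Its brightest probe (ILMN_2528095) had normalized log2 intensities of 5.93 and 5.74 in WTA, 4.35, 4.29 and 4.23 in WTD and 4.31, 4.25 and 4.49 in D7E. Both WTA arrays stood above all 6 others, and the WTD and D7E arrays overlapped at the floor of the scale. The second probe (ILMN_2952901) gave 5.53 and 5.66 in WTA, 4.28, 4.15 and 4.27 in WTD and 4.40, 4.36 and 4.30 in D7E. The third (ILMN_2952900) gave 5.57 and 4.97 in WTA, 4.33, 4.24 and 4.35 in WTD and 4.36, 4.21 and 4.30 in D7E. All 3 probes thus had the same layout, with the WTA arrays apart from the rest, and the third had the wider gap between its WTA arrays. Each Dupd1 probe was detected on both WTA arrays and on none of the 6 other arrays, a pattern that 87 of the 18815 probes tested shared (0.462%).

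In D7E, the contrast behind the choice of the set, the difference from WTA was -1.49, -1.24 and -0.98 (log2) for the 3 Dupd1 probes. A probe below background in a group has only a bound there, so the fold sets the brighter mean against the dimmer group's mean of the lowest detected level or the probe's own level, whichever is higher on each array. On that basis Dupd1 was at least 2.54-fold, 2.14-fold and 1.71-fold lower in D7E. WTD arrays took no part in the choice, but the WTA arrays did, and the 3 probes passed the filter on dim probes (detection on at least 2 arrays) through WTA alone. They therefore had to differ, and the p-values of the fit are printed as a description that supports no call. Against WTA, the WTD difference was -1.55 ± 0.16 (SE; limma, adjusted p = 0.002), -1.36 ± 0.15 (adjusted p = 0.00332) and -0.96 ± 0.19 (adjusted p = 0.0295) for the 3 probes. With no filter on dim probes the adjusted p was 0.00505, 0.00426 and 0.0974. The differences correspond to at least 2.48-fold, 2.09-fold and 1.67-fold lower levels, from means of 5.84 ± 0.14, 5.59 ± 0.09 and 5.27 ± 0.42 (SD, n = 2) in WTA to 4.29 ± 0.06, 4.23 ± 0.07 and 4.31 ± 0.06 (SD, n = 3) in WTD. Of all 18815 probes tested in that comparison 269 passed (1.43%), 114 of them lower in WTD (0.606%). Between D7E and WTD, both below background, the 3 probes differed by 0.06, 0.12 and -0.02, which was not tested because the D7E levels of Dupd1 chose the set. In a bulk sample, fewer cells that make a transcript and less of it per cell cannot be told apart.

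The WTA signal of Dupd1 was itself dim. Before normalization the brightest probe read 114.82 and 117.244 in WTA, 80.7305, 80.4623 and 88.7056 in WTD and 93.5424, 93.8994 and 99.5997 in D7E, in scanner units. Set against the median of its own array, it stood at 1.36 and 1.42 times the median in WTA, 0.965 to 1.01 in WTD and 0.974 to 1.05 in D7E. The separation of WTA from the other arrays was thus present in the signals as deposited, with the WTA arrays at most 1.42 times above the middle of the array for any Dupd1 probe. The size of the log2 difference depended on the background correction: without one, the WTD difference of the brightest probe was -0.52 (adjusted p = 0.0119, range over the alternatives 0.00172 to 0.808). The adjusted p of the 2 brighter probes was above 0.05 without WTA replicate 1 (-1.49 and -1.47, adjusted p = 0.067 for both, on the probes that pass with all 8 arrays) and with median centring of the arrays (-1.40 and -1.21, adjusted p = 0.808 and 1).

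**Figure D1:**
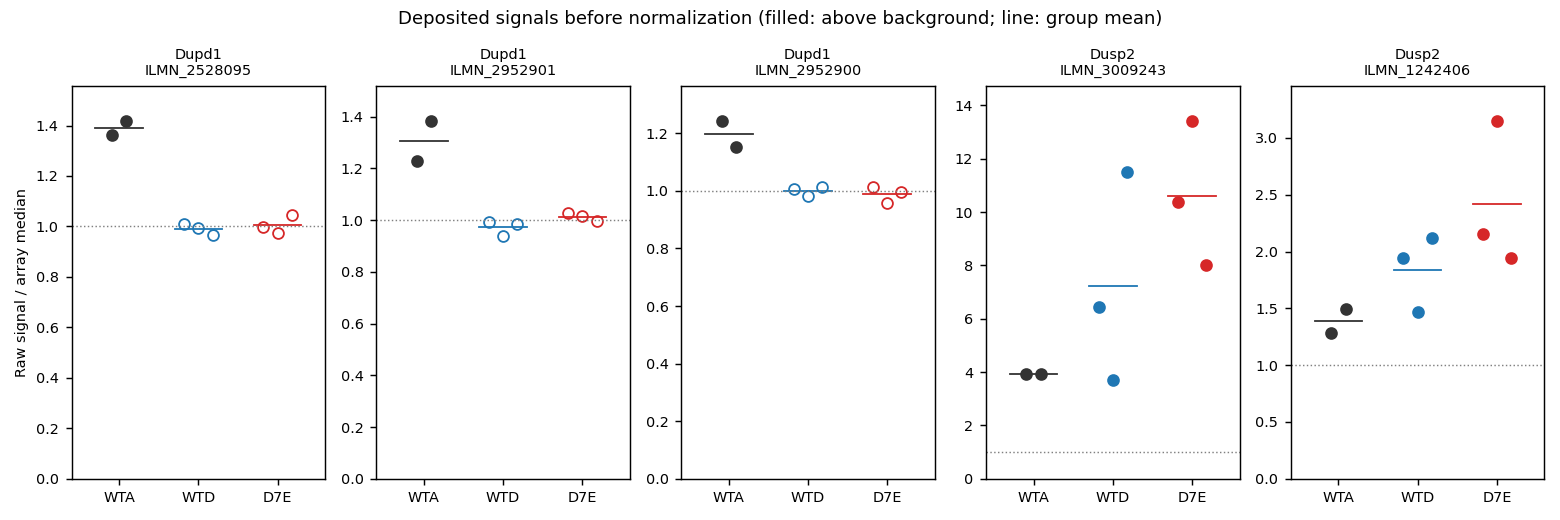
Deposited signal of the 3 Dupd1 and 2 Dusp2 probes divided by the median of the same array (y axis, ratio, from 0), by group; points are arrays, filled where detected above background, lines are group means, and the dotted line marks the array median. The brightest Dupd1 probe sits at 1.36 and 1.42 in WTA and at 0.965 to 1.05 elsewhere, and the brighter Dusp2 probe at 3.92 and 3.93 in WTA, with WTD replicate 2 at 3.71.

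Dusp2, a nuclear MAP kinase phosphatase best known from activated lymphocytes, was read on all 8 arrays and was higher in WTD and D7E than in WTA. Its brighter probe (ILMN_3009243) gave log2 intensities of 8.48 and 8.08 in WTA, 9.40, 9.22 and 9.44 in WTD and 9.57, 9.66 and 9.22 in D7E. The WTA arrays lay below all others, and the WTD and D7E arrays overlapped. Its difference from WTA was 1.21 (2.31-fold) in D7E, which is a description, and 1.08 ± 0.19 (SE; 2.11-fold, limma, adjusted p = 0.0205) in WTD, from 8.28 ± 0.28 (SD, n = 2) to 9.35 ± 0.12 (SD, n = 3). The WTA values in that test also chose the set, so it is not independent of the choice. Of all probes tested, 155 passed as higher in WTD (0.824%). The second Dusp2 probe (ILMN_1242406) gave 5.72 and 5.90 in WTA, 7.08, 6.95 and 6.45 in WTD and 6.76, 7.31 and 6.59 in D7E. It showed the same layout, and its difference of 1.02 ± 0.24 (2.02-fold) in WTD did not pass (adjusted p = 0.0623), while in D7E it differed by 1.07 (2.11-fold). D7E and WTD differed by 0.13 and 0.06 for the 2 probes, with no test. The smooth muscle marker Tagln was higher in the same groups as Dusp2, and its part in the result was not tested.

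For Dusp2 the deposited signals placed 1 array differently. The brighter probe read 332.043 and 324.696 scanner units in WTA, 516.135, 300.41 and 1056.67 in WTD and 971.118, 1291.33 and 764.058 in D7E. As a ratio to the array median this was 3.93 and 3.92 in WTA, 6.45, 3.71 and 11.5 in WTD and 10.4, 13.4 and 8.02 in D7E. WTD replicate 2, the array with the narrowest spread of signals, therefore stood below WTA before normalization and above it after normalization, whereas the other 5 WTD and D7E arrays were above WTA on both scales. On the second Dusp2 probe the ratio of WTD replicate 2, 1.46, lay between the WTA ratios of 1.29 and 1.49. Without WTD replicate 2 the difference of the brighter probe was 1.14 (limma, adjusted p = 0.0364). The Dusp2 call was lost without WTA replicate 1 (1.28, adjusted p = 0.0875), WTA replicate 2 (0.88, adjusted p = 0.147) or WTD replicate 1 (1.06, adjusted p = 0.0909), with no filter on dim probes (1.08, adjusted p = 0.0854) and with median centring (0.84, adjusted p = 1), over a range of 0.0142 to 1 for all alternatives.

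**Figure D2:**
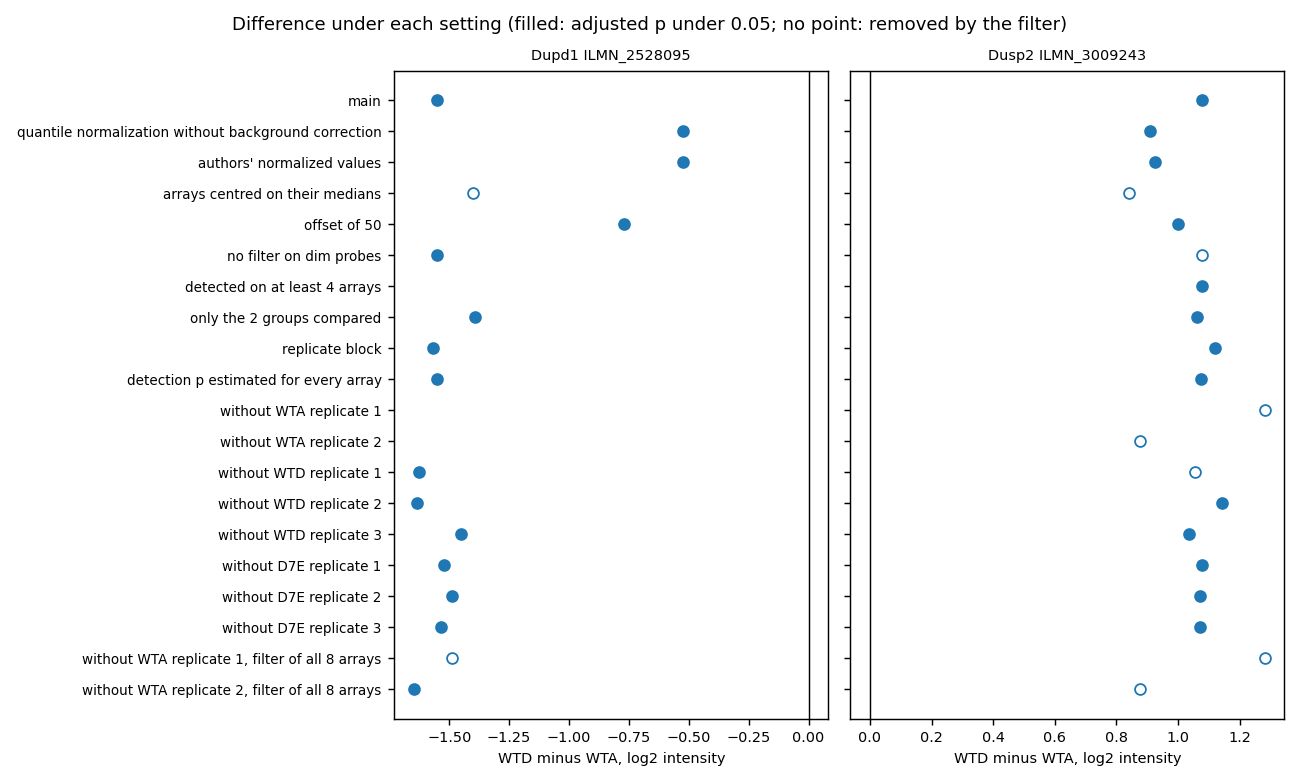
WTD minus WTA difference (x axis, log2 intensity) of the brightest probe of Dupd1 (left) and Dusp2 (right) under each setting (y axis); filled points have an adjusted p under 0.05, and a missing point means that the probe left the fit. The Dupd1 difference stays below 0, from -1.65 to -0.52, and the Dusp2 difference above 0, from 0.84 to 1.28, in the settings that gave a value. The WTA values of both genes chose the set, so the filled points are a description.

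Dusp1, the founding MAP kinase phosphatase, a nuclear enzyme induced by stress that acts on p38, JNK and ERK, showed no difference beyond the spread. Its probe (ILMN_2622983) gave log2 intensities of 8.69 and 8.86 in WTA, 8.77, 8.95 and 8.70 in WTD and 8.69, 8.93 and 8.44 in D7E. The 3 groups overlapped. WTD differed from WTA by 0.03 ± 0.18 (SE; 95% interval -0.36 to 0.43, limma, adjusted p = 0.959) and D7E from WTD by -0.12 ± 0.16 (95% interval -0.48 to 0.23, adjusted p = 0.89), and both values changed sign with median centring. D7E differed from WTA by -0.09, or by 0.40 with median centring, which moved the median of all probes in that comparison to 0.26.

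Dusp6, a cytosolic phosphatase that acts on ERK and is itself induced by growth factor signalling through ERK, had 3 probes, all detected on the 8 arrays. The brightest (ILMN_2925711) gave 9.13 and 9.60 in WTA, 9.99, 9.90 and 9.90 in WTD and 9.78, 9.91 and 9.52 in D7E. After normalization the WTD arrays lay above both WTA arrays, and 1 D7E array fell between the WTA arrays. Before it, the ratio to the array median was 5.77 and 9.60 in WTA, 5.54 to 15.3 in WTD and 9.68 to 15.9 in D7E. On that scale WTD overlapped WTA, and D7E lay above WTA. The difference of 0.56 ± 0.19 (SE; 1.47-fold, 95% interval 0.15 to 0.97) between WTD and WTA did not pass after adjustment (adjusted p = 0.191), and D7E differed from WTA by 0.37. The other Dusp6 probes differed between WTD and WTA by 0.06 (adjusted p = 0.934) and -0.23 (adjusted p = 0.796), so the 3 probes did not share a direction. The dimmest, ILMN_2701321, read 4.74 and 5.75 on the 2 WTA arrays, a gap wider than any of its group differences.

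Dusp4, a nuclear phosphatase that acts on ERK and JNK and is induced by ERK signalling, was dim on every probe. Its brightest probe (ILMN_2689731) gave 4.89 and 4.88 in WTA, 5.61, 5.28 and 5.25 in WTD and 5.09, 5.34 and 4.97 in D7E. The next (ILMN_2450767) gave 4.31 and 4.58 in WTA, where replicate 1 was not detected, 5.26, 5.50 and 5.41 in WTD and 5.50, 5.55 and 4.71 in D7E. As a ratio to the array median, WTD replicate 2 lay below both WTA arrays on the brightest probe (1.089 against 1.092 and 1.129). After normalization the WTA arrays were the lowest on both probes. The difference of WTD from WTA on them was 0.50 ± 0.18 (SE; adjusted p = 0.223) and 0.94 ± 0.24 (1.92-fold, adjusted p = 0.0824), neither past the threshold, and D7E differed from WTA by 0.25 and 0.81. The second passed when D7E replicate 3 was left out (0.93, adjusted p = 0.0195). Another Dusp4 probe was detected on D7E replicates 1 and 2 alone, with a D7E mean 0.10 above that of WTA, and the last on no array.

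Dusp3, a small atypical phosphatase also called VHR, which acts on ERK and JNK, had 4 probes that were detected on all 8 arrays. The brightest (ILMN_1219017) gave 11.08 and 11.16 in WTA, 10.52, 10.71 and 10.60 in WTD and 10.56, 10.36 and 10.73 in D7E. After normalization WTA lay above the other 6 arrays, which overlapped. Before it, the ratio to the array median was 19.6 and 26.8 in WTA, 9.08 to 24.5 in WTD and 19.9 to 22.5 in D7E. Those ranges overlapped. The difference between WTD and WTA was -0.51 ± 0.17 (SE; 1.43-fold lower, 95% interval -0.88 to -0.15) and did not pass after adjustment (adjusted p = 0.18). The other 3 Dusp3 probes differed by -0.35, -0.13 and -0.68 (adjusted p = 0.366, 0.849 and 0.282), all below 0, and the last (ILMN_2637538) passed when WTD replicate 3 was left out (-0.99, adjusted p = 0.0335). D7E differed from WTA by -0.57, -0.55, -0.39 and -0.37 on the 4 probes in order of brightness. With median centring these D7E values shrank to -0.00394 for the brightest and turned to 0.05 for ILMN_2637538.

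Dusp13, whose locus encodes separate muscle and testis enzymes, lies beside Dupd1 on chromosome 14, with 0 annotated genes between them in GRCm38.p6. Its brightest probe (ILMN_2719386) gave 9.23 and 8.56 in WTA, 9.41, 9.46 and 8.43 in WTD and 8.36, 8.40 and 9.10 in D7E. Arrays of 1 group differed by more than the group means did, and the 3 groups overlapped. The difference of WTD from WTA was 0.21 ± 0.32 (SE; 95% interval -0.50 to 0.91, adjusted p = 0.84) and that of D7E from WTD -0.48 ± 0.29 (95% interval -1.11 to 0.15, adjusted p = 0.712), and both changed sign with median centring. The second probe (ILMN_3156236) had a similar spread, with differences of -0.05 (adjusted p = 0.973) and 0.03 (adjusted p = 0.989). The dimmest Dusp13 probe (ILMN_2536029) gave 4.88 and 4.81 in WTA, 4.26, 4.24 and 4.41 in WTD and 4.68, 4.18 and 4.29 in D7E. It was detected on both WTA arrays, on no WTD array and on D7E replicate 1. Its difference of -0.54 ± 0.18 (SE; at least 1.25-fold lower) in WTD did not pass (adjusted p = 0.186). This probe met the filter on dim probes through the WTA arrays, where it was brightest, so its p-value is a description. Another dim Dusp13 probe (ILMN_3077281), detected on 6 arrays, had means of 4.53 in WTA, 4.49 in WTD and 4.57 in D7E, and WTD differed from WTA by -0.04 (adjusted p = 0.946). After normalization both WTA arrays thus lay above the 6 others, as for Dupd1, on 1 of the 4 Dusp13 probes, ILMN_2536029. As a ratio to the array median, D7E replicate 1 of that probe (1.093) lay between the WTA arrays (1.091 and 1.113).

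Dusp26, an atypical phosphatase known from brain and muscle, had 1 probe, which was detected on none of the 8 arrays (log2 intensity 4.14 to 4.42). It gives no comparison.

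**Figure D3:**
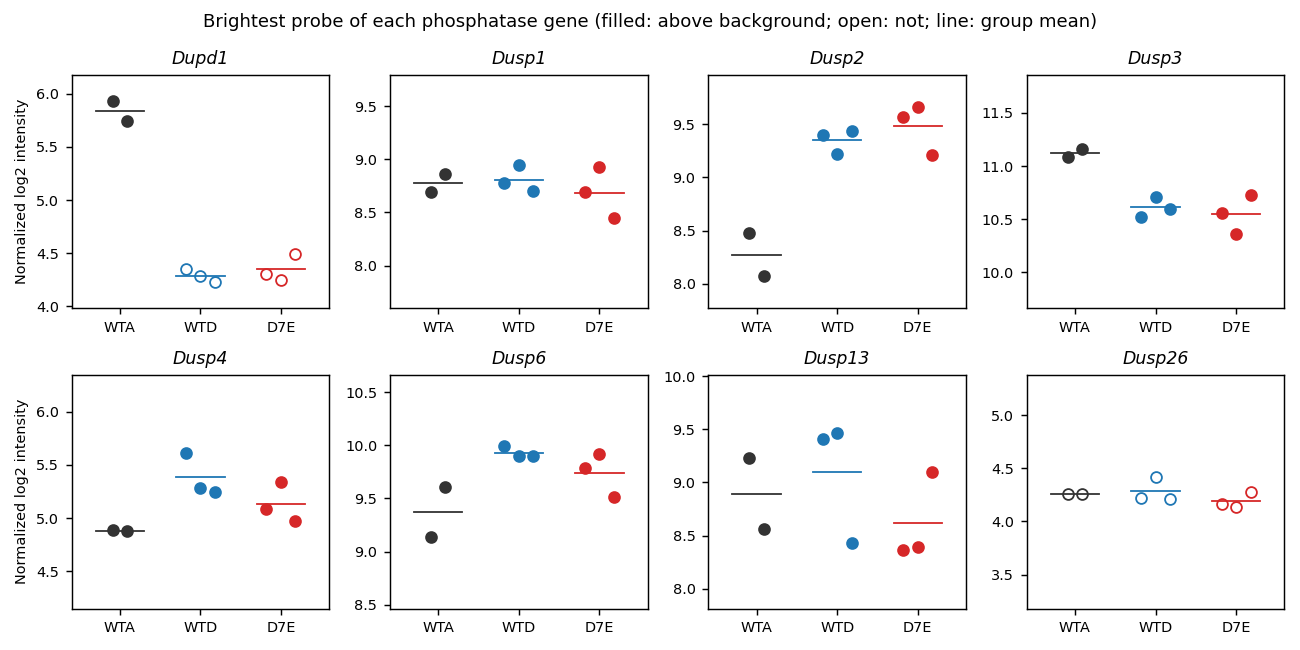
Normalized log2 intensity (y axis, ranges differ between panels) of the brightest probe of each of the 8 genes by group; points are arrays, filled where detected above background and open where not, and lines are group means. Dupd1 is filled in WTA alone, Dusp2 is lowest in the 2 WTA arrays, Dusp1 and Dusp13 overlap between groups, and Dusp26 is open on all 8 arrays.

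Over the whole set, 20 of the 22 probes, from 7 genes, were detected on at least 2 arrays and tested, and 13 were detected on all 8 arrays. Between WTD and WTA the probes past the threshold were the 3 of Dupd1, lower, and 1 of Dusp2, higher. These are the genes whose WTA values chose the set, and the Dupd1 probes had to differ, so nothing is read from their number beside the 1.43% of all probes. Of the 15 tested probes of the 5 other genes none passed in limma. An unadjusted p under 0.05 was found for 6 of them and for 2648 of all 18815 probes. The 6 include Dusp13 ILMN_2536029, which passed the filter through WTA alone. The WTD and WTA arrays did not overlap for 7 of these 15 (28.7% of all probes), which were probes of Dusp3, Dusp4, Dusp6 and Dusp13. Among the 7, 2 dim probes separated at the floor. Dusp4 ILMN_2608995 was detected on no WTA or WTD array, and Dusp13 ILMN_2536029 on no WTD array. Of the 15 probes 6 lay above 0, and the median difference of the 15 was -0.05 against -0.01 for all probes tested. Between D7E and WTA, the contrast used to choose the set, 7 of the 15 did not overlap (31.5% of all probes). The same 2 dim probes were among them. The median of the 15 was -0.09 against -0.00175 for all probes tested. In that comparison 107 of all probes passed (0.569%). Between D7E and WTD the same 15 probes were tested, on D7E arrays that the choice of the set had used. None passed in limma, where 5 of all probes passed (0.0266%). At an unadjusted p under 0.05 were 0 of the 15, against 1527 of all 18815 probes. The D7E and WTD arrays did not overlap for 2 of the 20 probes (14.2% of all probes), Dupd1 ILMN_2952901 and Dusp4 ILMN_2608995. Both separations lie at the floor. The Dupd1 probe was detected on none of these arrays. The Dusp4 probe was detected on D7E replicates 1 and 2 alone and passed the filter through them.

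**Figure D4:**
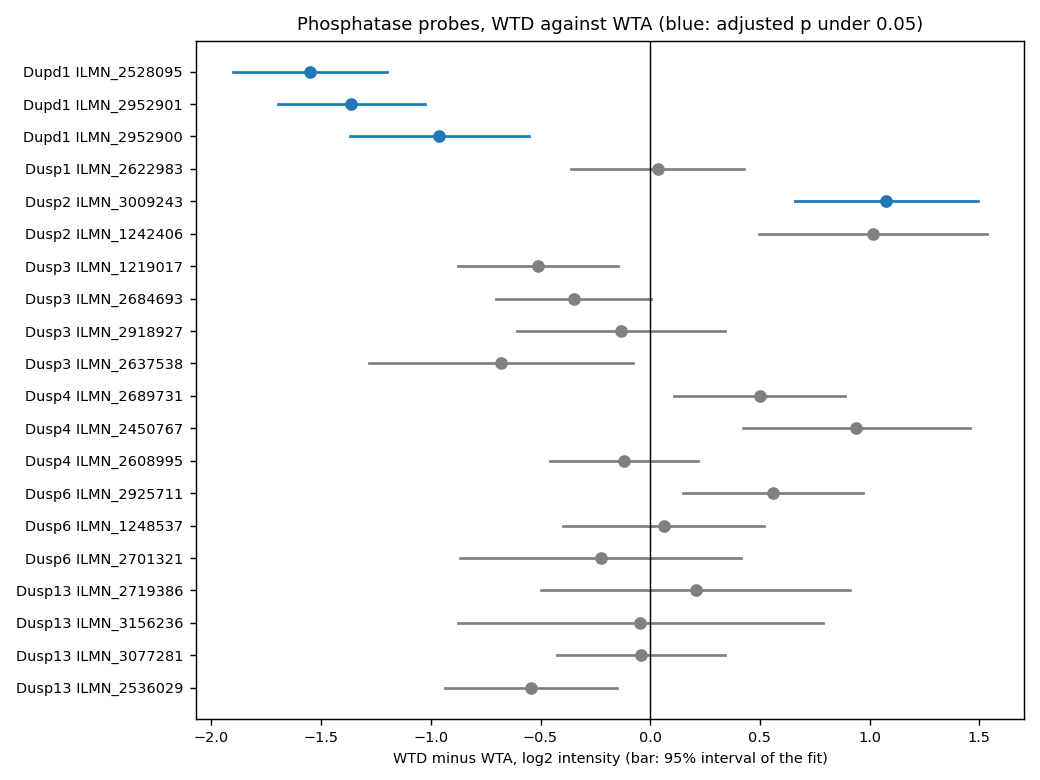
WTD minus WTA difference (x axis, log2 intensity) of the 20 phosphatase probes tested (y axis), with the 95% interval of the fit; blue marks an adjusted p under 0.05 and grey the rest. The 3 Dupd1 probes lie at -1.55, -1.36 and -0.96 and the blue Dusp2 probe at 1.08, and the 16 other probes are grey. The WTA values of Dupd1 and Dusp2 chose the set, and the Dupd1 probes had to differ, so their colour is no independent support.

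The other genes of the pathway were taken as 6 lists, each gene read on its brightest probe. None of the 27 other dual-specificity phosphatases tested passed in any of the 3 comparisons. The one with the smallest p between WTD and WTA was Ptp4a3, a membrane-anchored phosphatase, at 9.79 and 9.61 in WTA and 8.74, 9.10 and 8.84 in WTD (-0.81 ± 0.23, SE; adjusted p = 0.118), and it passed without D7E replicate 3 (-0.80, adjusted p = 0.0417). For D7E it was Dusp14, which read 4.44 and 4.43 in WTA, 5.03, 4.65 and 4.59 in WTD and 5.22, 5.34 and 4.99 in D7E and differed from WTA by 0.74 (adjusted p = 0.107) and from WTD by 0.42 (adjusted p = 0.524). Dusp14 was detected on 5 of the 8 arrays. Both its WTA values lay below the lowest detected level of their arrays (4.50 and 4.49), so its difference from WTA is one from the floor. The median of the list between WTD and WTA was 0.03, close to the -0.01 of all probes.

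Of the MAP kinases, the substrates of these phosphatases, 10 of 14 were tested and none passed on its brightest probe. Mapk12, the p38 gamma kinase of skeletal muscle, came nearest, with 5.90 and 5.88 in WTA, 7.19, 6.36 and 6.94 in WTD and 6.85, 6.98 and 7.20 in D7E. Both WTA arrays lay below the 6 others. The difference of Mapk12 from WTA was 0.94 ± 0.23 (SE; adjusted p = 0.0664) in WTD and 1.12 ± 0.23 (adjusted p = 0.0507) in D7E, while 2 dimmer Mapk12 probes passed in WTD (0.83, adjusted p = 0.0257, and 0.87, adjusted p = 0.0455). The brightest Mapk12 probe passed in 1 of 19 alternatives in WTD (without WTD replicate 2, adjusted p = 0.0201) and in 4 of 19 in D7E (only the 2 groups compared, estimated detection p-values, and without WTD replicate 2 or 3; adjusted p = 0.0181 to 0.0489). Mapk4, detected on 2 arrays, had the smallest p between D7E and WTD (-0.24, adjusted p = 0.802). Of the kinases and GTPases upstream, 29 of 38 were tested and none passed. Map3k1, a kinase that feeds JNK and ERK, differed between WTD and WTA by -0.69 ± 0.16 (adjusted p = 0.0662) and between D7E and WTA by -0.54 (adjusted p = 0.191), and Map3k12 had the smallest p between D7E and WTD (-0.40, adjusted p = 0.524). The Map3k1 difference in WTD passed without background correction (-0.39, adjusted p = 0.0388), with the authors' values (-0.39, adjusted p = 0.0385) and with an offset of 50 (-0.51, adjusted p = 0.0401).

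Genes induced by ERK and other immediate early genes gave 1 call among 32 tested of 39, and it was lower in WTD. Atf3, a stress-induced transcription factor of the bZIP family, read 5.65 and 5.35 in WTA, 4.77, 4.27 and 4.62 in WTD and 4.43, 4.67 and 4.82 in D7E. Both WTA arrays lay above the rest. Atf3 was detected on 6 arrays, and WTD replicate 2 and D7E replicate 1 lay below the lowest detected level of their arrays (4.68 and 4.51). WTD was lower by -0.95 ± 0.20 (SE; adjusted p = 0.0386), and D7E differed by -0.86 ± 0.20 (adjusted p = 0.0824). The list was split evenly between WTD and WTA, with 16 genes above and 16 below 0. Gadd45a, a growth arrest gene, had the smallest p between D7E and WTD (0.49, adjusted p = 0.425).

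None of the 18 growth factor ligands and receptors tested, of 29, passed. Egfr differed between WTD and WTA by 0.71 ± 0.17 (SE; adjusted p = 0.072), Fgf1 between D7E and WTA by -0.74 (adjusted p = 0.213) and Fgf7 between D7E and WTD by 0.76 (adjusted p = 0.444). Of the kinases that MAP kinases activate, 7 of 11 were tested and 1 passed. Mknk2, which phosphorylates the cap-binding protein eIF4E, read 11.41 and 11.26 in WTA, 10.44, 10.30 and 10.66 in WTD and 10.74, 10.76 and 10.50 in D7E. WTA lay above all 6 other arrays. WTD was lower by -0.87 ± 0.17 (SE; adjusted p = 0.0328), and D7E differed by -0.67 ± 0.17 (adjusted p = 0.132). All 7 kinases of this list lay below 0 in WTD and in D7E against WTA, which share the WTA arrays, and Rps6ka5 had the smallest p between D7E and WTD (0.46, adjusted p = 0.67). The WTD calls held in 5 of 19 alternatives for Atf3 (adjusted p = 0.0387 to 1) and in 7 of 19 for Mknk2 (0.0171 to 1). Both were lost without either WTA array (adjusted p = 0.305 and 0.109 for Atf3, 0.278 and 0.116 for Mknk2), without WTD replicate 1 or 2 (0.0734 and 0.0962 for Atf3, 0.127 and 0.0992 for Mknk2) and without D7E replicate 1 or 2 (0.0602 and 0.0677 for Atf3, 0.0602 and 0.0573 for Mknk2). They were also lost with median centring (1 for both), with no filter (0.122 and 0.0767) and with only the 2 groups compared (0.0826 and 0.0617). Atf3 alone lost the call without background correction (-0.31, adjusted p = 0.0859), with the authors' values (-0.30, adjusted p = 0.0869) and with an offset of 50 (-0.46, adjusted p = 0.0591), and Mknk2 alone with the replicate block. In D7E, Mknk2 passed without background correction and with the authors' values (adjusted p = 0.0383 and 0.0408).

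**Figure D5:**
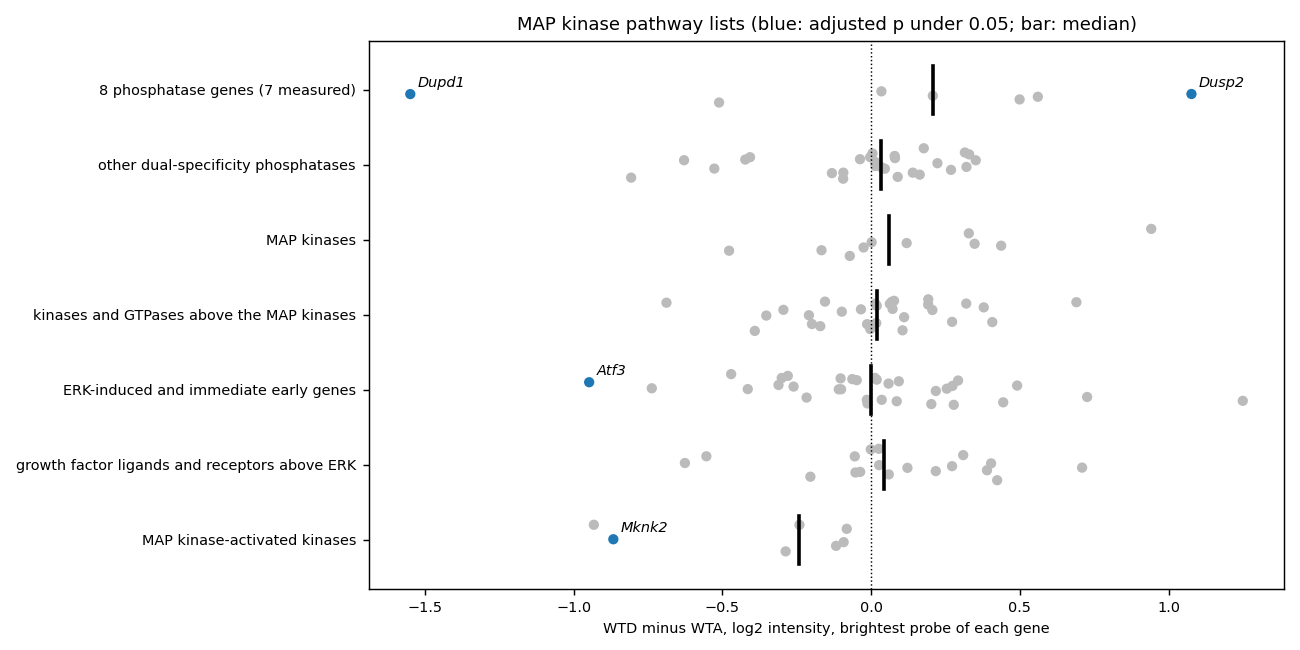
WTD minus WTA difference (x axis, log2 intensity) of each gene on its brightest probe, by list (y axis); blue points have an adjusted p under 0.05 and black bars are medians over the genes shown. Dupd1 at -1.55 and Dusp2 at 1.08 lie outside most other points. The WTA values of these genes chose the set, and Dupd1 had to differ, so their colour is no independent support. Atf3 at -0.95 and Mknk2 at -0.87 are the called genes of the other lists. The points of the MAP kinase-activated kinases all lie below 0.

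Among 10543 genes with a kept probe, the profiles most like that of Dupd1 over the 8 arrays were those of Vldlr (Pearson r 0.993), Dhx58 (0.988), Ret (0.984), Pm20d2 (0.983) and H2-Ab1 (0.983). Vldlr, a lipoprotein receptor detected on every array, read 10.35 and 10.27 in WTA, 9.00, 8.77 and 8.67 in WTD and 8.79, 8.61 and 8.98 in D7E. Dhx58, Ret and Pm20d2 were, like Dupd1, detected on 2 arrays. The profiles most like that of Dusp2 were those of Pdlim2 (0.976), Gja5 (0.973), Iba57 (0.972), Mrps12 (0.971) and Slc11a1 (0.971), each detected on all 8 arrays. Gja5, a gap junction connexin, read 9.58 and 9.30 in WTA, 10.93, 11.07 and 11.28 in WTD and 11.20, 11.19 and 10.67 in D7E. These values are a description: the 8 arrays form 3 groups, the 2 WTA arrays set most of each r, and the genes were picked out of all those compared.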

How the data were processed

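Total RNA of IM2 myotubes was amplified with a TotalPrep kit and hybridized to Illumina bead arrays, of which 8 were used here, per the labels' protocols. Each raw table pairs 1 column of intensities with 1 of detection p-values per array, per the file headers. The intensities were deposited as non-normalized, and the detection p-values as the scanner software wrote them, whose name the headers do not give. A further table of log2 intensities was deposited as normalized, by quantiles as judged from its values. Both WTA arrays stand in each raw table with identical values and were counted once. Other WTA arrays were not analysed here.

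The WTD signals stood in another probe order: their rank correlations with WTA were -0.00787 to 0.0025 as deposited and 0.725 to 0.789 after all 45281 pairs of WTA ranks had been matched between the raw table and the authors' values. For WTD replicates 1 and 3 the detection p-values did not follow the signals (rank correlations -0.714 and -0.711, against -0.987 to -0.996 on the 6 other arrays) and were estimated from 23132 background probes. On those 6 arrays the estimate gave the deposited call for 97.3% to 98.8% of probes and called more probes detected.

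The function neqc (limma 3.58.1, R 4.3.3, offset 16) normalized all 8 arrays together, so log2 values near the floor are compressed. Probes with a detection p under 0.05 on at least 2 arrays (18815) entered one fit of 3 group means (lmFit, eBayes, two-sided, Benjamini-Hochberg over all of them, threshold 0.05). The fit was tested on simulated data. Gene symbols came from the platform annotation (34885 probes with 1 symbol, 18 with several, 10378 with none); probe sequences were not used here. No slide or date is given, so batches were not tested. The genes of the set and the lists were chosen with earlier results of these data known. Named were every probe of the 8 genes, the genes of each list past the threshold, at most 4 with the smallest p, or else the gene with the smallest p, and the 5 genes whose profile over the arrays had the highest Pearson r with Dupd1 and with Dusp2. Alternatives covered the background correction, the authors' values, median centring, the offset, the filter, the arrays normalized together, the replicate block, estimated detection p-values and leaving out each array.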

Additional observations from a re-analysis of the deposited data

How the results depend on the processing

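Between WTD and WTA the Dupd1 and Dusp2 differences kept their sign in every setting that gave a value. Their WTA values chose the set, so this is a description and no support. The number of probes past the threshold depended on the setting. Between WTD and WTA (269) it was 0 with median centring and 62 with no filter, 2 to 409 when 1 array was left out, and 2 and 75 without WTA replicate 1 or 2 on the probes that pass with all arrays. Between D7E and WTA (107) it was 276 without background correction, 276 with the authors' values, 0 with median centring, 198 with an offset of 50, 59 with no filter, 71 with only the 2 groups compared, 52 with the replicate block, 0 to 186 with 1 array left out, and 0 and 20 without WTA replicate 1 or 2 on the full set of probes. Between D7E and WTD (5) it was 2, 2, 0, 0, 0 and 1 in those first 6 settings, 1 with detection on at least 4 arrays, 0 to 72 with 1 array left out, the highest without WTD replicate 3, and 0 without either WTA array on the full set. Where 0 probes passed with median centring, limma gave 317, 1094 and 2260 at an unadjusted p under 0.05 in the 3 comparisons. For the other counts of 0 it gave 1521 and 1555 between D7E and WTA, without WTA replicate 1, and 1099 to 2892 between D7E and WTD.

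The third Dupd1 probe had an adjusted p under 0.05 in 5 of 16 alternatives (-1.26 to -0.30, adjusted p = 0.0269 to 1). No Dupd1 value exists with detection on at least 4 arrays or without a WTA array under its own filter, since the probes then leave the fit; leaving out a WTA array on the full set of probes was added after seeing the data. The second Dusp2 probe passed with the replicate block (1.18, adjusted p = 0.0204) and without WTD replicate 3 (1.19, adjusted p = 0.0229).

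Between WTD and WTA and between D7E and WTD, the differences whose sign turned did not pass in the main setting. The widest of them were Dusp13 ILMN_2719386 (-0.48) and Map3k12 (-0.40) between D7E and WTD. Signs also turned between D7E and WTA, where the phosphatases had no test. An example is Dusp6 ILMN_2701321, at -0.42 and at -0.94 to 0.084 with 1 array left out. Median centring, which moved the median of all probes to -0.0858, 0.261 and 0.401 in the 3 comparisons, gave for WTD against WTA Dusp1 -0.20, Dusp6 ILMN_1248537 -0.090, Dusp13 ILMN_2719386 -0.022 and Dusp13 ILMN_3077281 0.034, and for D7E against WTD Dusp1 0.60, Dusp3 0.72, 0.48 and 0.37, Dusp4 0.10 and 0.24, Dusp6 0.56 and 0.40, Dusp13 0.23 and Map3k12 0.15. Dusp13 ILMN_3156236 turned to 0.071 with the replicate block (WTD against WTA) and to -0.0142, -0.0152 and -0.00712 without background correction, with the authors' values and with an offset of 50 (D7E against WTD). With 1 array left out, the sign turned within these ranges for WTD against WTA: Dusp1 -0.049 to 0.12, Dusp3 ILMN_2918927 -0.43 to 0.16, Dusp6 -0.022 to 0.10 and -0.74 to 0.28, Dusp13 -0.13 to 0.54, -0.46 to 0.37 and -0.12 to 0.046. For D7E against WTD the ranges were Dusp3 -0.15 to 0.036, Dusp4 -0.27 to 0.14, Dusp6 -0.32 to 0.055 and -0.36 to 0.053, Dusp13 -0.39 to 0.41, -0.029 to 0.16 and -0.071 to 0.17. The cause of these turns was not tested.

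The main fit did not pair arrays by replicate number, and the labels do not say whether the numbers pair them. The correlation of same-numbered deviations from the group means was -0.275 to 0.150. With 2 or 3 arrays in a group these deviations constrain each other, so the values cannot settle the pairing. With the replicate block, 311, 52 and 7 probes passed in the 3 comparisons, and Mknk2 did not (-0.87, adjusted p = 0.065). The low signal over background limits Dupd1, which reached at most 1.42 times the array median. The number of arrays, 2 in WTA, limits every comparison.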

Other observations

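Read in the probe order of the deposited table, without the restoration, the WTD signals of the brightest Dupd1 probe would be 78.7, 79.1 and 85.8 scanner units, near the restored 80.7, 80.5 and 88.7. Those of the brighter Dusp2 probe would be 74.2, 79.6 and 87.7 in place of 516, 300.4 and 1057, and those of the second Dusp2 probe 289, 186 and 513 in place of 155, 118 and 195. In the deposited order a row holds the signal of another probe, and most probes on an array were not detected. The likeness of the Dupd1 readings in both orders therefore says nothing about Dupd1. The reading of the Dupd1 probe itself is that of the restored order. The WTD reading of Dusp2 changed with the order.

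Egr3, an immediate early transcription factor chosen here after its value was seen, had the largest difference of the ERK-induced list between WTD and WTA, at 1.25 ± 0.32 (SE; limma, adjusted p = 0.0895), and did not pass.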
